A study of Homo sapiens with 12 samples.

Results

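The genes described here are 30 direct transcriptional targets of the tumour suppressor p53, listed by gene symbol and matched to the Ensembl identifiers of the deposited table. All 30 were among its 60660 identifiers, each with 1 identifier. By role they were placed as 7 genes of growth arrest, 14 of apoptosis and survival, 5 of DNA repair and antioxidant supply, and 4 of feedback on p53 itself. Of the 30, 27 had enough reads for testing (7, 11, 5 and 4 by role), and EDA2R, SPATA18 and ACER2 did not.

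p53 is a transcription factor that is held at a low level by the ubiquitin ligase MDM2 and released when DNA is damaged or growth signals are abnormal. It then binds paired decamer sites near its targets, whose products stop the cell cycle, repair DNA, trigger cell death or, as MDM2 does, switch p53 off again. In fibroblasts made to express reprogramming factors, p53 and its target CDKN1A are known as barriers that lower the yield of pluripotent colonies.

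Messenger RNA was sequenced from dH1f, a human fibroblast line derived from H1 embryonic stem cells. There were 4 groups of 3 replicates: cells with lenticrisprv2 directed at MRG15 (labelled MRG15 knockout, code G22, here KO) and cells with a non-targeting vector and control sgRNA (labelled wild type, NT), both before OSKM (day 0) and on day 6 after OSKM (POU5F1, SOX2, KLF4 and MYC). All cells therefore carried a guide vector, and the day 6 groups had OSKM as well. The labels give the same code to all KO libraries and do not say whether the cells were a pool or 1 clone, whether replicates were separate cultures, or whether any day 6 culture lacked OSKM. Effects of the guide itself, of cutting the genome and of loss of MRG15 cannot be told apart, nor can time in culture and OSKM. If replicates were technical, p-values measure only that spread.

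Values below are estimated normalised counts, obtained by undoing the authors' variance-stabilising transformation (VST), and differences are between mean VST values (log2 scale, with SE). For weakly expressed genes such a difference understates the log2 fold. A gene was called at a limma adjusted p under 0.05 over 14858 genes, and the share of all tested genes called is given beside each count of p53 targets. Summed estimated counts per library were 17.96 to 23.68 M, lowest in KO cells on day 6. As a check of the labels, MORF4L1 (the gene of MRG15) had 1292, 1301 and 1421 counts in KO and 7682, 7773 and 7863 in NT libraries on day 0, and 1059, 961 and 1040.0 in KO and 6709, 7116 and 7043 in NT libraries on day 6. The 10 fibroblast markers summed to 1852850 to 1966170 counts in KO and 2189650 to 2336120 in NT cells on day 0, and to 289211 to 309690 in KO and 794951 to 830886 in NT cells on day 6. Such sums are set mostly by the most abundant markers. Taken singly, 2 were called higher and 4 lower in KO cells on day 0, and 0 higher and 9 lower on day 6. Of all tested genes 18.2% were called on day 0 and 36.9% on day 6. From day 0 to day 6, 2 fibroblast markers rose and 8 fell in NT cells, and 1 rose and 9 fell in KO cells (66.8% and 73.8% of all tested genes called). The 8 pluripotency markers, which include the OSKM genes POU5F1 and SOX2, summed to 20489.5 to 21069.5 in KO and 13646 to 14194 in NT cells on day 6, and to at most 244 on day 0. Sums for 6 epithelial, 6 neural and 5 endothelial markers were higher on day 6 than on day 0 in both genotypes, and 5 immune markers together reached at most 105 counts. Of the 4 neural markers tested, 3 were called higher and 1 lower on day 6 in each genotype. The part of these shifts in the results below was not tested, and in bulk RNA fewer cells of a kind and less RNA per cell cannot be told apart.

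Matches to the p53 binding sequence in the promoters are shown first, since they mark which of the 30 genes carry the p53 sequence close to a transcription start. RefSeq promoter windows (GRCh38.p14, 250 bases before to 50 bases after a start) were found for 24 of the 30 genes. They were searched on both strands for the p53 response element, 2 adjacent half-sites of 10 bases, with at most 2 mismatches to the consensus and with the C and G of each CNNG core required. A match was found in 4 of the 24 genes and in 5 of their 37 windows (13.5%), against 0.285% of all 35116 windows and 98 of all 27305 genes. Overlapping MDM2 windows hold the same element, which is therefore counted more than once among the 5. The genes were listed as known p53 targets, so this is a description of the list. The sites lay at chr12:68808923-68808942 (MDM2), chr10:88991309-88991328 (FAS), chr15:88621306-88621325 (AEN) and chr11:47214969-47214988 (DDB2), all read on the plus strand, and capitals mark the 4 core bases of each half-site:
MDM2: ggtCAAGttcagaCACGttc
FAS: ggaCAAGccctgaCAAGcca
AEN: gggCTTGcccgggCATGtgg
DDB2: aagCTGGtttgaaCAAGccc
All 4 elements lie inside the annotated genes, which start at 68808176 (MDM2), 88990582 (FAS), 88621296 (AEN) and 47214465 (DDB2). Windows at starts further upstream had 8 mismatches at best in MDM2 and FAS and 7 in DDB2. The windows of MDM2 (chr12:68808767-68809066) and FAS (chr10:88991181-88991480) belong to starts inside the genes. In them the element sits 94 and 122 bases before the start that defines the window, and they are given in full with the element in capitals:
MDM2 promoter: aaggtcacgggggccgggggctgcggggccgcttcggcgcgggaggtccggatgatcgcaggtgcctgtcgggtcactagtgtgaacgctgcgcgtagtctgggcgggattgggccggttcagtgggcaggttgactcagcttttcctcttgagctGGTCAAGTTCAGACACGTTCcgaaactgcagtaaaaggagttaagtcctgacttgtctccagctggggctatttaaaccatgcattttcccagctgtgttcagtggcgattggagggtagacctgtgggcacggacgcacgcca
FAS promoter: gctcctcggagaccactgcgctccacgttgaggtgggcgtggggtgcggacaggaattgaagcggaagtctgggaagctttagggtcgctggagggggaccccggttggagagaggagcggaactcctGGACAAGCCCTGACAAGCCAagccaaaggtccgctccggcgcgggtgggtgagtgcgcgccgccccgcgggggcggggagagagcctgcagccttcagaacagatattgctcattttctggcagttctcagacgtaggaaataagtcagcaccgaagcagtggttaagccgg
Between KO and NT cells on day 6, FAS was lower, AEN was higher, and MDM2 and DDB2 were not called. A match describes the letters only, and its absence from a window says nothing of p53 binding elsewhere.

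The comparison of KO with NT cells before reprogramming addresses which targets differ with the MRG15 guide alone. Of the growth arrest genes CDKN1A, GADD45A and ZMAT3 were lower in KO cells, and none was higher. TP53I3 and TNFRSF10B of the apoptosis group were lower as well, and FDXR was higher. No gene of repair or feedback was called, MDM2 included. In all, 1 of 27 targets was higher and 5 were lower, or 22.2% called against 18.2% of all tested genes (7.42% higher and 10.7% lower). The median difference over the 27 was -0.093, against -0.00432 over all genes. Libraries of KO and NT cells did not overlap for 12 of the 27, against 33.6% of all tested genes.

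CDKN1A encodes p21, the inhibitor of cyclin-dependent kinases that carries most of the arrest by p53 (GRCh38 chromosome 6, 36676460 to 36687339). Its estimated count on day 0 was 805, 749.7 and 778 in KO libraries, against 1096, 1224 and 1114 in NT libraries. Every KO library lay below every NT library, a level 32.1% lower (difference -0.53, SE 0.07, adjusted p = 0.000102). GADD45A, a stress protein that binds PCNA and restrains CDK1, was at 1046, 964 and 1030.3 in KO and 1447, 1491 and 1386 in NT libraries, again without overlap (difference -0.49, SE 0.07, adjusted p = 0.000366). ZMAT3, an RNA-binding zinc finger protein, averaged 537 ± 15.9 in KO and 690.0 ± 32.6 in NT cells (SD, n = 3 each, difference -0.33, SE 0.07, adjusted p = 0.00497). The secreted stress factor GDF15 was at 79.7, 89.5 and 83.9 in KO and 82.8, 118 and 110.0 in NT libraries, which overlapped (difference -0.19, adjusted p = 0.261).

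TP53I3, also PIG3, encodes a quinone oxidoreductase of the oxidative branch of p53-induced death. It stood at 587, 577 and 628 in KO libraries, against 829, 909.9 and 924 in NT libraries, so the groups did not overlap (difference -0.53, SE 0.07, adjusted p = 0.000168). FDXR, the mitochondrial ferredoxin reductase, went the other way, with 141, 148 and 146 in KO and 103, 109.9 and 82.3 in NT libraries (difference 0.40, SE 0.11, adjusted p = 0.0217). That call was lost without KO replicate 1, 2 or 3 or NT replicate 3 of day 0 (adjusted p = 0.0501, 0.0604, 0.0577 and 0.0854). The death receptor gene TNFRSF10B (DR5) was lower by a small step, 1399 ± 71.0 in KO and 1630.2 ± 63.5 in NT cells (difference -0.21, adjusted p = 0.0202). It was no longer called without KO replicate 1 or 2 or NT replicate 2 of day 0 (adjusted p = 0.0855, 0.0596 and 0.0746), without the filter or after quantile normalisation.

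The killers BAX and BBC3 were not called on day 0. BAX, which forms pores in the outer mitochondrial membrane, had 1039.7, 1170.4 and 1172 in KO and 1113, 1186 and 929 in NT libraries (adjusted p = 0.621). BBC3 (PUMA), a BH3-only activator of BAX, had 232, 159.9 and 190.2 in KO and 176, 226 and 217 in NT libraries (adjusted p = 0.725). MDM2 was nearly level, at 652, 545 and 705 in KO and 663, 688 and 560.1 in NT libraries (difference -0.01, SE 0.12, adjusted p = 0.975). In all 3 genes the libraries of the groups overlapped.

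**Figure D1:**
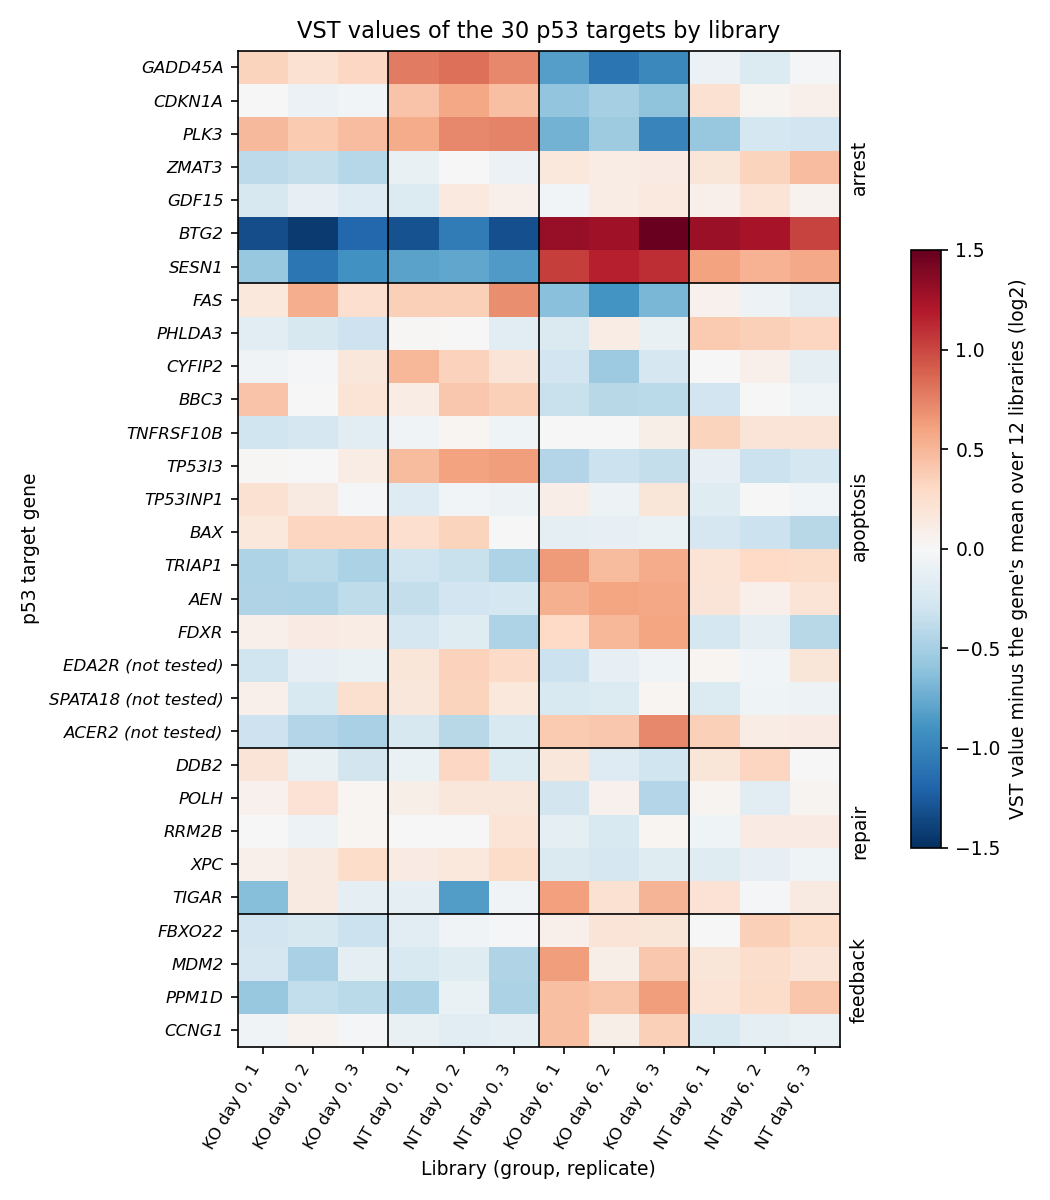
VST value of each of the 30 p53 targets (rows, by role) in each of the 12 libraries (columns, KO left of NT on each day), minus the gene's mean over the 12 libraries (colour, log2). BTG2 and SESN1 change colour between the days, while GADD45A and CDKN1A are lowest in the 3 KO libraries of day 6.

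On day 6 of reprogramming, KO and NT cells differed in 5 of 7 arrest genes, 7 of 11 apoptosis genes and 1 of 4 feedback genes, CCNG1. CDKN1A, GADD45A, PLK3 and ZMAT3 of the arrest group and FAS, PHLDA3, CYFIP2 and TNFRSF10B of the apoptosis group were lower in KO cells. SESN1, FDXR, AEN, TRIAP1 and CCNG1 were higher. Over the 27 targets, 5 were higher and 8 lower, or 48.1% called against 36.9% of all tested genes (17.7% higher and 19.2% lower). Again no repair gene was called. The median difference was -0.094 (0.00625 over all genes), and the libraries did not overlap for 17 of the 27 (49.6% of all tested genes). The 5 targets called on both days, CDKN1A, GADD45A, ZMAT3, TNFRSF10B and FDXR, kept their direction, and 8.72% of all tested genes were called on both days in the same direction. The calls on PLK3, ZMAT3 and CYFIP2 were weak, with adjusted p of up to 0.131, 0.196 and 0.138 over the alternatives. That on TNFRSF10B was lost in 1 of 21 alternatives (adjusted p = 0.0504). Without NT replicate 2 of day 6, 5 targets were lower instead of 8.

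**Figure D2:**
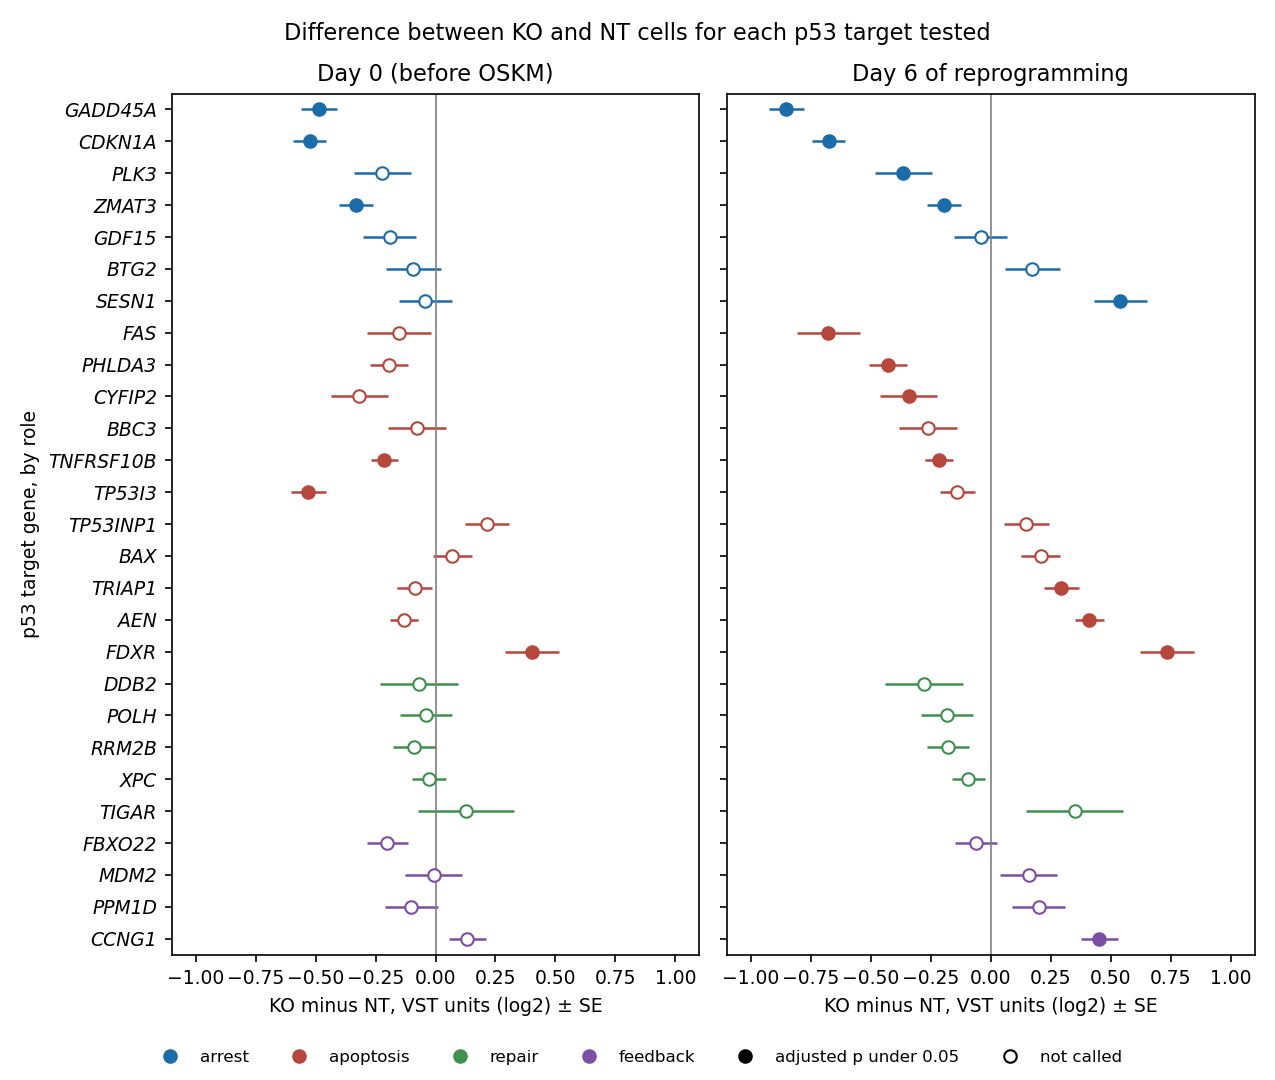
Difference between KO and NT cells (VST units, log2, ± SE, 3 libraries per group) for the 27 p53 targets tested, on day 0 (left) and day 6 (right), coloured by role, with filled points for adjusted p under 0.05. On day 6 the differences run from -0.85 (GADD45A) to 0.73 (FDXR), and 5 genes are filled right of 0 and 8 left of it.

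Among arrest genes, CDKN1A stood at 513, 552 and 509 in KO libraries of day 6, against 950.0, 823 and 844 in NT libraries (difference -0.68, SE 0.07, adjusted p = 2.63e-06). GADD45A had the lowest difference of the 27, with 435, 354 and 393 in KO and 762, 701 and 801 in NT libraries (difference -0.85, SE 0.07, adjusted p = 4.75e-07). The groups did not overlap for either gene, and the KO level was 39.9% lower for CDKN1A and 47.8% lower for GADD45A. PLK3, a stress-activated polo-like kinase, averaged 94.5 ± 21.6 in KO and 135 ± 20.9 in NT cells with overlapping libraries (difference -0.37, SE 0.12, adjusted p = 0.0267). It lost its call without KO replicate 3 or NT replicate 2 or 3 of day 6 (adjusted p = 0.131, 0.0946 and 0.0907), and ZMAT3 (difference -0.20) lost its call without any 1 of 8 libraries. For ZMAT3 the difference without NT replicate 3 of day 6 was -0.13 (adjusted p = 0.196).

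SESN1 was the arrest gene that was higher. It encodes sestrin 1, which restrains the growth kinase complex mTORC1. Its count was 579, 637 and 609 in KO libraries of day 6, against 413, 388 and 403 in NT libraries, 1.52-fold higher without overlap (difference 0.54, SE 0.11, adjusted p = 0.00143). On day 0 it had been 155, 93.2 and 112 in KO and 123, 126 and 119 in NT libraries, with the KO libraries on both sides of the NT ones. BTG2, an antiproliferative partner of the CCR4-NOT deadenylase, was not called on either day (differences 0.17 on day 6 and -0.09 on day 0), nor was GDF15 on day 6, at 97.5, 114 and 118 in KO and 109.8, 126 and 107 in NT libraries.

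In the apoptosis group the cell-surface death receptor FAS (GRCh38 chromosome 10, 88990582 to 89015785) was lower in KO cells on day 6. It had 44.7, 30.4 and 41.6 in KO libraries, against 99.0, 85.0 and 77.8 in NT libraries, 55.4% lower without overlap (difference -0.68, SE 0.13, adjusted p = 0.00104). On the scale of log2 counts with a pseudocount of 1 the difference was -1.16. On day 0 the FAS libraries overlapped, at 109, 157 and 119 in KO and 132, 132 and 179 in NT cells. FAS shares 380 exon bases with ACTA2, the smooth muscle actin gene on the opposite strand, which was itself lower in KO cells on day 6 (1270.4 ± 38.9 in KO, 6617 ± 221 in NT). The library kit keeps the strand, but whether counting used it is not given in the sources used here, and the part of ACTA2 reads in FAS was not tested. PHLDA3, a repressor of the survival kinase AKT, averaged 1013 ± 125 in KO and 1378 ± 33.4 in NT cells (difference -0.43, SE 0.08, adjusted p = 0.000659). It shares 598 exon bases with a non-coding gene on the same strand (ENSG00000224818), so reads there could be assigned to either. CYFIP2, a WAVE complex subunit, was lower too (difference -0.34, adjusted p = 0.033), but not without KO replicate 2 or NT replicate 1 or 2 of day 6 (adjusted p = 0.138, 0.0867 and 0.11). TNFRSF10B differed by -0.22 (adjusted p = 0.00891, and 0.0504 without NT replicate 1 of day 6).

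Of the apoptosis genes that were higher, FDXR had the highest difference of all 27. Its libraries held 174, 206 and 225 in KO and 102, 116 and 86.8 in NT cells, 1.98-fold higher without overlap (difference 0.73, SE 0.11, adjusted p = 0.000131). AEN, a nuclease that degrades DNA in dying cells, had 1107, 1159.9 and 1153 in KO and 869, 792 and 874 in NT libraries (difference 0.41, SE 0.06, adjusted p = 9.87e-05). TRIAP1, a small mitochondrial protein that opposes apoptosis, averaged 683 ± 42.7 in KO and 547 ± 21.8 in NT cells (difference 0.29, SE 0.07, adjusted p = 0.00531). FAS and AEN, which both promote death, thus had opposite signs. TP53I3 was at 412, 453 and 441 in KO and 530.0, 453 and 475 in NT libraries, which overlapped (adjusted p = 0.151).

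BAX on day 6 had 830.3, 845 and 864 in KO libraries, all above the 768, 731 and 681 of NT libraries, and missed the threshold (difference 0.21, SE 0.08, adjusted p = 0.0596). It was called in a fit of the day 6 groups alone (adjusted p = 0.0288) and after centring libraries on 1 median (adjusted p = 0.0395). Without NT replicate 2 or 3 of day 0, which enter only through the shared spread, adjusted p was 0.0434 and 0.0218. BBC3 had 116, 107 and 108 in KO libraries, all below the 121, 158 and 150.2 of NT libraries, and did not pass either (difference -0.26, adjusted p = 0.105). TP53INP1, a stress-induced partner of p53 in cell death, was called in none of the 5 comparisons.

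In the feedback group, CCNG1, cyclin G1, which brings the phosphatase PP2A to MDM2, was higher in KO cells on day 6 at 1864 ± 241, against 1340.4 ± 62.7 in NT cells (difference 0.45, SE 0.08, adjusted p = 0.000308). MDM2 had 1248, 841 and 1057 in KO and 901, 959 and 909 in NT libraries, so KO replicate 2 lay below all NT libraries and the other two KO libraries above them (difference 0.16, SE 0.12, adjusted p = 0.331). Without that replicate the difference was 0.30 and adjusted p was 0.0496. PPM1D, the phosphatase WIP1 that dephosphorylates p53, had 437, 427 and 501 in KO and 360.5, 380.2 and 427 in NT libraries, the lowest KO and the highest NT library nearly equal, and did not pass the test (difference 0.20, adjusted p = 0.178). FBXO22, an F-box protein of a ubiquitin ligase for p53, was not called on either day (differences -0.06 on day 6 and -0.20 on day 0).

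FBXO22 and AEN lie on chromosome 15 together with MORF4L1. The 317 well-expressed genes of that chromosome had a median difference between KO and NT cells of -0.11 on day 6 and -0.18 on day 0. The medians of the other 22 chromosomes were -0.0436 to 0.0724 on day 6 and -0.0278 to 0.0317 on day 0. On day 0, FBXO22 (-0.20) and AEN (-0.13) lay near that median, and on day 6 AEN, at 0.41, had the opposite sign. The part of the chromosome in these values was not tested.

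No repair gene was called between KO and NT cells on either day (0 of 5). Among all tested genes 18.2% were called on day 0 and 36.9% on day 6. The 5 repair genes were RRM2B, the p53-inducible subunit of ribonucleotide reductase, XPC and DDB2, which recognise lesions in nucleotide excision repair, POLH, a translesion polymerase, and TIGAR, a fructose bisphosphatase that favours NADPH production. Differences on day 6 ran from -0.28 (DDB2, SE 0.16) to 0.35 (TIGAR, SE 0.20), with adjusted p of 0.129 to 0.322. TIGAR had 652, 487 and 602 in KO libraries of day 6, all above the 479, 397 and 449 of NT libraries, but its day 0 libraries were widely spread, at 241, 451 and 362 in KO and 363, 204 and 389 in NT cells. A fit on the day 6 groups alone, with their narrower spread, called TIGAR (adjusted p = 0.0246). POLH was called lower (adjusted p = 0.0168) only without KO replicate 2 of day 6. Its mean on day 6 was 406 ± 84.1 in KO and 463 ± 41.7 in NT cells. TIGAR shares 1711 exon bases with a gene annotated on the same strand (ENSG00000285901), so reads there could be assigned to either. XPC, FBXO22, MDM2 and SESN1 share 1140, 1917, 785 and 363 exon bases with genes on the opposite strand (XPC-AS1, NRG4, ENSG00000257181 and ENSG00000271730). An annotated pseudogene shares 439 exon bases with MDM2, and CCNG1, TRIAP1, POLH and ACER2 have pseudogenes elsewhere. The counts of all these targets are less certain where reads could be split between such genes or copies.

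**Figure D3:**
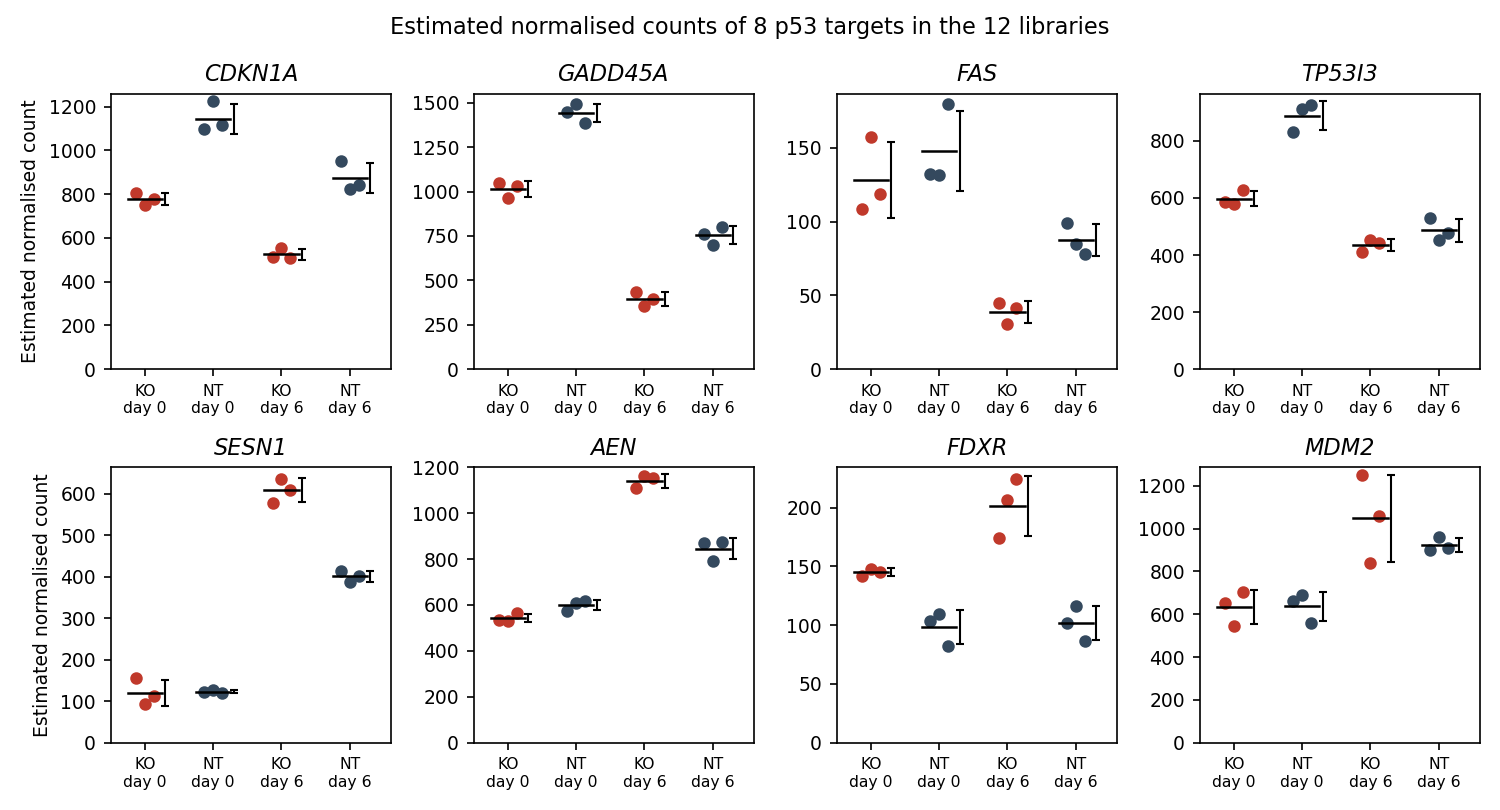
Estimated normalised counts of 8 p53 targets in each library (points, red KO, dark grey NT), with the group mean (line) and SD (bar, n = 3 each), on axes that start at 0. CDKN1A and GADD45A are lower in KO than in NT cells on both days, FAS on day 6, and SESN1, AEN and FDXR are higher on day 6.

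Day 6 against day 0 moved the targets by a median of 0.436 in KO and 0.404 in NT cells in either direction, against 0.263 on day 6 and 0.133 on day 0 between KO and NT cells. Over all tested genes the same medians were 0.49 in KO and 0.376 in NT cells between the days, and 0.185 on day 6 and 0.129 on day 0 between KO and NT cells. Arrest genes split: BTG2 and SESN1 rose by far the most, ZMAT3 rose, and CDKN1A, GADD45A and PLK3 fell, in both genotypes. Of the 4 feedback genes MDM2, PPM1D and FBXO22 rose in both genotypes, and CCNG1 rose in KO cells (0.31, adjusted p = 0.00205) and was not called in NT cells (-0.01, adjusted p = 0.889). In apoptosis, AEN, TRIAP1 and TNFRSF10B rose in both genotypes, and BAX, BBC3, FAS, TP53I3 and CYFIP2 fell in both. In NT cells 10 targets rose and 9 fell, or 70.4% called against 66.8% of all tested genes (33.6% higher and 33.1% lower). In KO cells 13 rose and 10 fell, or 85.2% against 73.8% (37.6% and 36.2%). The same 18 targets were called in one direction in both genotypes, 9 up and 9 down, and none in opposite directions. Of all tested genes 59.6% were called in one direction in both genotypes, 30.3% up and 29.3% down. The days did not overlap for 22 of 27 targets in KO cells (76.4% of all tested genes) and for 21 in NT cells (69.6%). These 2 comparisons share no library.

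BTG2 had 415, 406 and 479 on day 6 and 28.9, 24.8 and 36.1 on day 0 in KO libraries, 14.5-fold higher (difference 2.67, SE 0.12, adjusted p = 1.62e-11). In NT libraries it had 412, 393 and 330.4 on day 6 and 30.4, 43.8 and 29.4 on day 0 (difference 2.41, SE 0.12, adjusted p = 8.89e-11). In both genotypes this was the largest change among the 27. SESN1 followed, 5.07-fold higher on day 6 in KO cells (difference 1.96, SE 0.11, adjusted p = 3.71e-10) and 3.27-fold in NT cells (difference 1.38, SE 0.11, adjusted p = 3.31e-08). CDKN1A went down instead, by 32.6% in KO cells (difference -0.52, SE 0.07, adjusted p = 5.90e-06) and by 23.8% in NT cells (difference -0.37, SE 0.07, adjusted p = 0.000211), without overlap between the days. GADD45A fell by 1.25 in KO and by 0.89 in NT cells and PLK3 fell by 1.19 and by 1.05 (adjusted p at most 1.82e-06). GDF15 was called higher in KO cells only narrowly (difference 0.25, adjusted p = 0.0487), a call lost in 13 of 21 alternatives with adjusted p of up to 0.2 (difference 0.16 after quantile normalisation), among them those without any 1 of 9 libraries.

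Among apoptosis genes, FAS fell by 1.05 in KO cells (SE 0.13, adjusted p = 3.81e-06) and by 0.53 in NT cells (SE 0.13, adjusted p = 0.00258), and on log2 counts with a pseudocount of 1 the change in KO cells was -1.70. TP53I3 had the lowest change of its group in NT cells (difference -0.80, SE 0.07, adjusted p = 1.50e-07), against -0.41 in KO cells (SE 0.07, adjusted p = 0.000124). BAX changed by -0.39 in KO and -0.53 in NT cells, and BBC3 by -0.60 and -0.41, with adjusted p of at most 0.00798. FDXR rose in KO cells (0.36, adjusted p = 0.00877) and was nearly level in NT cells (0.03, adjusted p = 0.812). AEN rose 2.10-fold in KO cells (difference 1.00, SE 0.06, adjusted p = 8.63e-10) and 1.41-fold in NT cells (difference 0.46, SE 0.06, adjusted p = 8.47e-06). PHLDA3 rose in NT cells (0.40, adjusted p = 0.00037), while its change in KO cells missed the threshold (0.17, adjusted p = 0.0699, and 0.0184 without KO replicate 1 of day 6). CYFIP2 was lower on day 6 in KO (-0.39, adjusted p = 0.00712) and in NT cells (-0.37, adjusted p = 0.0122), the second not without NT replicate 1 of day 0 or 3 of day 6 (adjusted p = 0.0594 and 0.0567).

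Of the feedback genes, PPM1D had the highest change, 437, 427 and 501 on day 6 and 189, 224 and 217 on day 0 in KO libraries (difference 0.95, SE 0.11, adjusted p = 1.67e-06). In NT libraries it had 360.5, 380.2 and 427 on day 6 and 204, 282 and 205 on day 0 (difference 0.65, SE 0.11, adjusted p = 0.000104). MDM2 rose 1.65-fold in KO (difference 0.67, SE 0.12, adjusted p = 0.000135) and 1.45-fold in NT cells (difference 0.50, SE 0.12, adjusted p = 0.0018). For both genes every day 6 library lay above every day 0 library of its genotype.

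XPC was the repair gene called in NT cells, with 543, 563 and 589 on day 6 and 681, 696 and 766 on day 0 (difference -0.31, SE 0.07, adjusted p = 0.00116). In KO cells it had 525, 513 and 539 on day 6 and 656, 685 and 761 on day 0 (difference -0.38, SE 0.07, adjusted p = 0.000182). TIGAR rose in KO cells (difference 0.67, SE 0.20, adjusted p = 0.00743), and in NT cells it had the same sign without a call (0.45, adjusted p = 0.0611), which became a call without NT replicate 1 or 3 or KO replicate 1 or 2 of day 0 (adjusted p = 0.0457, 0.0262, 0.0331 and 0.0449). POLH was called lower in KO cells (-0.32, adjusted p = 0.0168), but not without KO replicate 2 of day 0 or 1 or 3 of day 6 (adjusted p = 0.0692, 0.0537 and 0.0996). The difference without the last of these was -0.21. RRM2B and DDB2 were called in none of the 5 comparisons.

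**Figure D4:**
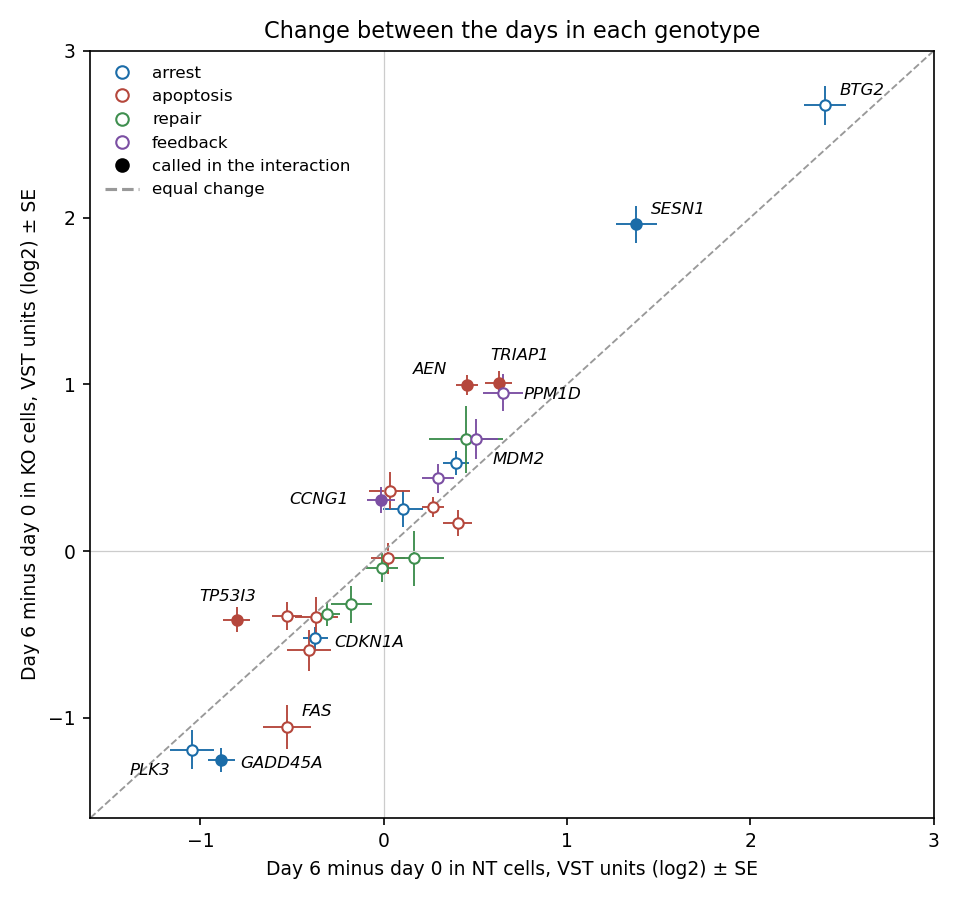
Day 6 minus day 0 in KO cells (vertical axis) against the same in NT cells (horizontal axis), in VST units (log2) ± SE, for the 27 p53 targets tested, coloured by role, with filled points where the interaction was called. BTG2 and SESN1 lie far to the upper right, SESN1, AEN, TRIAP1, TP53I3 and CCNG1 lie above the line of equal change and GADD45A lies below it.

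Whether the difference between KO and NT cells itself differed between the days was tested by the interaction, the day 6 difference minus the day 0 difference. Of the 27 targets 5 were higher and 1 lower, or 22.2% called against 20.3% of all tested genes (9.07% higher and 11.2% lower). AEN had the lowest adjusted p, with a difference of 0.41 on day 6 and -0.13 on day 0 (interaction 0.54, SE 0.09, adjusted p = 0.000441). SESN1 (0.58, SE 0.16, adjusted p = 0.0166) and TRIAP1 (0.38, SE 0.10, adjusted p = 0.0171) were likewise higher in KO cells on day 6 but not called on day 0. TP53I3 was not called on day 6 (-0.14) and was lower in KO cells on day 0 (-0.53), an interaction of 0.39 (SE 0.10, adjusted p = 0.0158). GADD45A was lower on both days and lower by more on day 6 (-0.37, SE 0.10, adjusted p = 0.022), a call lost without KO replicate 1 of day 0, KO replicate 2 or NT replicate 3 of day 6 (adjusted p = 0.053, 0.0502 and 0.0568). CCNG1 passed narrowly (0.32, adjusted p = 0.0492) and was lost in 17 of 20 alternatives, among them those without any 1 of 11 libraries, with adjusted p of up to 0.119. For CDKN1A the interaction was -0.15 (SE 0.10, adjusted p = 0.301). FAS, called on day 6 and not on day 0, had -0.53 (SE 0.19, adjusted p = 0.0626). It was called without KO replicate 1 or NT replicate 3 of day 0 (adjusted p = 0.0499 and 0.0265), and on log2 counts with a pseudocount of 1 (difference -0.95, adjusted p = 0.0341). PHLDA3 was called without KO replicate 2 of day 6 (adjusted p = 0.033).

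The 3 targets too weak to be tested had fewer than 45 estimated counts in every library. EDA2R, a receptor of the TNF receptor family, had 0.941, 2.69 and 2.94 in KO and 7.80, 11.7 and 10.2 in NT libraries on day 0, and 0.775, 2.70 and 3.65 in KO and 4.91, 3.82 and 7.82 in NT libraries on day 6. Its KO libraries lay below its NT libraries on both days. SPATA18, which acts in the quality control of mitochondria, averaged 6.32 ± 4.21 in KO and 9.95 ± 2.53 in NT cells on day 0, and 3.32 ± 2.08 in KO and 3.48 ± 1.05 in NT cells on day 6. ACER2, a ceramidase of the Golgi, averaged 33.7 ± 9.66 on day 6 and 4.55 ± 1.58 on day 0 in KO cells, and 20.5 ± 5.34 on day 6 and 6.70 ± 1.98 on day 0 in NT cells. In a fit without the filter, which tested all 30, ACER2 was called higher on day 6 in KO (adjusted p = 7.12e-05) and NT cells (adjusted p = 0.021), and EDA2R and SPATA18 were not called in any comparison.

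Upstream of these targets, 30 genes that regulate p53 or share its family were listed, of which 29 were tested. MDM4, the partner of MDM2 that masks p53, was not called between KO and NT cells (differences -0.14 on day 6 and 0.30 on day 0). Between the days it was lower on day 6 in KO cells (-0.48, adjusted p = 0.0416) and not called in NT cells (-0.04, adjusted p = 0.871). Of the 29 regulators 0 were higher and 2 lower on day 0 (6.9% called, against 18.2% of all tested genes). They were CDKN2A, which encodes p16 and the MDM2 inhibitor ARF (-0.38, adjusted p = 0.00183), and DYRK2, a p53 kinase (-0.22, adjusted p = 0.0379). On day 6, 8 were higher and 7 lower (51.7% called, against 36.9%), with a median difference of 0.14. The largest differences belonged to PPP1R13L, an inhibitor of p53 known as iASPP (-0.68), the damage kinase ATM (-0.58), the p53 relative TP73 (0.53) and the deacetylase SIRT1 (0.46), with adjusted p of 6.38e-05 to 0.0129.

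A second list held 60 further genes reported elsewhere as p53 targets, of which 56 were tested. This list too was chosen with earlier results of these data known, so its shares describe the list only. On day 0, 8 were higher and 10 lower in KO cells (32.1% called, against 18.2% of all tested genes). On day 6, 3 were higher and 22 lower (44.6% called, against 36.9%), with a median difference of -0.14. Of all tested genes 17.7% were higher and 19.2% lower on day 6. In the interaction 2 were higher and 19 lower (37.5% called, against 20.3% of all tested genes, 9.07% higher and 11.2% lower). From day 0 to day 6, 14 rose and 31 fell in KO cells (80.4% called, against 73.8% of all tested genes), and 15 rose and 27 fell in NT cells (75% called, against 66.8%). The largest called differences of day 0 were those of the antiviral TRIM22 (-1.17), the matrix protein THBS1 on chromosome 15 (50.1% lower in counts), the double-stranded RNA receptor TLR3 (-0.69) and the repressor PRDM1 (0.68). Among the largest on day 6 were those of THBS1 (-2.63), the autophagy protein DRAM1 (-1.26) and the cytokine LIF (-0.85), with adjusted p of 8.36e-14 to 0.000136. THBS1 averaged 2038 ± 43.5 in KO and 12903 ± 556 in NT cells on day 6. It is also a matrix gene of fibroblasts, and the summed fibroblast markers given above were lower in KO cells on the same day.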

How the data were processed

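Polyadenylated RNA of 12 libraries was made with TruSeq Stranded mRNA chemistry, per the labels' protocols. STAR, Salmon, DESeq2 and GRCh38 appear in the submitters' processing notes without versions. The deposited table holds log2-scale values that the authors made by variance-stabilising transformation of normalised counts. Its floor, 4.852, was taken as 0 reads. Counts were estimated by inverting the parametric form of that transformation, which was assumed, so raw depth is not known. Genes with a mean at least 1 above the floor (an estimated 14.4 counts) were fitted in 1 limma 3.58.1 model (R 4.3.3, trend option) with 4 group means, and p-values were two-sided and Benjamini-Hochberg adjusted over 14858 genes. The procedure was tested on simulated data, and the alternatives were no filter or one at 2 above the floor, quantile or median normalisation, log2 counts with a pseudocount of 1 or 10, no trend, only the 2 groups compared, a replicate block and leaving out each library. Gene names came from Ensembl identifiers, coordinates from GENCODE release 29, and promoters from RefSeq (GRCh38.p14). No library was a copy of another: values differed for at least 99.55% of tested genes.

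The 30 genes, their roles and the other lists were chosen with earlier results of these data known. Per-library values are given for CDKN1A, MDM2, BAX, BBC3 and GDF15, for targets called between KO and NT cells or in the interaction with a difference of at least 0.5, and for the target with the largest called change between the days in each role. From the 2 other lists, up to 4 called genes per comparison of KO with NT cells are named, with MDM4, and some genes that the rule takes are not reported here. ZMAT3, TRIAP1 and others are named beyond that rule to account for every target, and EDA2R was given in full after its values were seen.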

Additional observations from a re-analysis of the deposited data

Results flagged for a closer look

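For 6 p53 targets the difference between KO and NT cells changed from day 0 to day 6 by the interaction test, or 22.2% of the 27 tested, against 20.3% of all tested genes. The change was 0.58 for SESN1, 0.54 for AEN, 0.39 for TP53I3, 0.38 for TRIAP1, 0.32 for CCNG1 and -0.37 for GADD45A, in VST units (log2). The call was lost in 17 of 20 alternatives for CCNG1 and in 4 for GADD45A. For AEN, 3 of 3 KO libraries lay below all NT libraries on day 0 and 3 of 3 above them on day 6. Of all tested genes, 33.6% did not overlap on day 0 and 49.6% on day 6. The day 0 difference of AEN (-0.13) was not called, so a change of sign is not shown. It lay near the day 0 median of chromosome 15 (-0.18), and the part of the chromosome was not tested. Groups of 3 libraries are too small for a test of single outlying libraries.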

How the results depend on the processing

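Over 21 alternatives, 56 of the 67 called differences of single targets kept their call and direction, 11 lost their call in at least 1 alternative, and none of the 67 changed sign. Of 68 differences not called, 8 were called in at least 1 alternative. Without the filter, 5 targets were lower in KO cells on day 6 and 0 were lower in the interaction, with 43596 genes tested instead of 14858. On log2 counts with a pseudocount of 1 or 10, 2 targets were lower in the interaction, GADD45A and FAS, and the cause was not tested. Leaving out single libraries gave 0 to 1 target higher in KO cells on day 0, 5 to 8 lower on day 6 and 0 to 2 lower in the interaction. In that interaction the count moved without NT replicate 3 of day 0 (2 lower) and without NT replicate 3 of day 6 (0 lower). It stayed at 1 with another gene called in 2 further cases. Without KO replicate 1 of day 0, GADD45A was lost (adjusted p = 0.053) and FAS was called (adjusted p = 0.0499). Without KO replicate 2 of day 6, GADD45A was lost (adjusted p = 0.0502) and PHLDA3 was called (adjusted p = 0.033). Same-numbered replicates did not deviate together (r of -0.053 to 0.0634 over 18 pairs of libraries, against -0.0547 to 0.0738 for differently numbered pairs). The main fit was planned without a replicate block. With the replicate block, ZMAT3 on day 6 (adjusted p = 0.0504) and CCNG1 in the interaction (adjusted p = 0.0621) lost their calls, leaving 7 targets lower on day 6 and 4 higher in the interaction, and no other call changed. Quantile normalisation turned the split of all called genes on day 0 to 1235 higher and 1217 lower, from 1102 and 1596. Raw depth is not known, so what it limits was not tested.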
